A study of Mus musculus with 4 samples.

Results

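Across the mouse autosomes, 1704 merged CTCF regions lay within 5 Mb of the distal chromosome end, out of 29116 regions in all (5.85%). Members were chosen by position alone. Peaks of the 4 deposited lists that overlapped by 1 bp or more were merged, and a region on chromosomes 1 to 19 was taken as distal when its centre was at most 5000000 bp before the highest peak end seen on that chromosome in any list. The other 26477 autosomal regions served as the background, compared at equal control rank where a region had calls in both controls. The assay was ChIP-seq (chromatin immunoprecipitation, then sequencing) for CTCF in WEHI-231, a B cell lymphoma line of (BALB/c x NZB)F1 mouse origin. The tested cells carry a stable TFII-I knockdown (2 libraries, replicates 1 and 2), and they were set against WEHI-231 control cells (2 libraries, replicates 1 and 2). Both kinds of cells were grown in the same medium and precipitated with the same CTCF antibody. The labels do not say what the control cells carry, whether the knockdown line is a clone or a pool, or whether replicates were separate cultures, so the spread between replicates may be technical, and p-values then measure that spread only.

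CTCF recognises a long DNA motif through its zinc fingers, halts cohesin-driven loop extrusion and so occupies many loop anchors and domain borders. TFII-I, encoded by Gtf2i, is a transcription factor of the initiator and E-box binding kind, and the title of the series asks whether it brings CTCF to gene promoters. Mouse autosomes are acrocentric, so the centromere lies beside the low end of the coordinates and the distal end is the high end, next to the telomere. Telomere repeats and the blocks beside them are hard to map, so the last peak of a chromosome is the end of the listed peaks and not the physical end. The distal ends hold different genes on each chromosome. In the RefSeq gene order of assembly GRCm38, the last named protein-coding genes on chromosome 1 are Cd46, Cr1l and then Cr2, the complement receptor of B cells. On chromosome 3 the last is Wls, which escorts Wnt ligands to the cell surface, and on chromosome 14 it is Fgf14, a sodium channel modulator. On chromosome 6 the last such gene is Bicd1, an adaptor of the dynein motor. These genes orient the reader only, because the peaks are given in the older build mm9 and no region was assigned to a gene.

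The 4 lists differed in length before any position was considered. Knockdown replicates 1 and 2 held 18484 and 14852 autosomal peaks, against 23789 and 23203 in control replicates 1 and 2. Each peak has the authors' own score, which starts at about 50 and has a ceiling of 3100. The lists hold no read depth. A shorter list with lower scores lacks weak peaks anywhere in the genome, so counts at the distal ends are read below only beside the same values for other regions.

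Distal regions had fewer calls in the knockdown lists than in the control lists, as other regions did, and the gap was slightly wider at the ends. Knockdown replicate 1 held 1093 distal peaks and knockdown replicate 2 held 844, against 1447 in control replicate 1 and 1411 in control replicate 2. The knockdown mean was 968.5 ± 176 distal peaks and the control mean 1429 ± 25.5 (SD, n = 2 each). As a share of the autosomal peaks of the same list, distal peaks made up 5.91% (95% Clopper-Pearson interval 5.58 to 6.26%) in knockdown replicate 1 and 5.68% (5.32 to 6.07%) in knockdown replicate 2. In control replicates 1 and 2 the share was 6.08% (5.78 to 6.39%) and 6.08% (5.78 to 6.40%). Both knockdown shares lay below both control shares, while all 4 counting intervals overlapped. The mean share was 5.80 ± 0.163% in knockdown and 6.08 ± 0.00108% in control libraries (SD, n = 2 each), a difference of -0.284 percentage points. The two-sided exact permutation p was 0.333, the smallest that 2 libraries against 2 allow, so no value here could pass 0.05. The intervals cover counting error over peaks only, and neighbouring peaks are not independent. The close match of the 2 controls did not hold at equal list length. There the control shares were 6.26% and 6.04%, and the knockdown shares 5.92% and 5.70%.

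**Figure D1:**
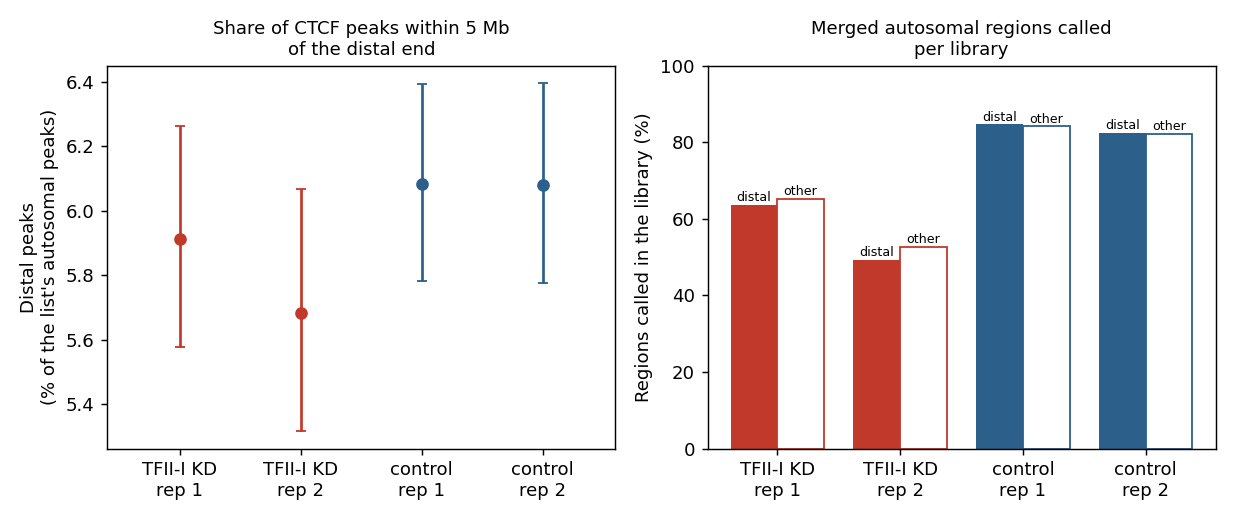
Left, the share of each list's autosomal CTCF peaks that lay within 5 Mb of the distal end, in percent, with 95% Clopper-Pearson intervals (the axis does not start at 0). Right, the percentage of merged distal regions (filled bars) and other autosomal regions (open bars) called in each library. Both knockdown shares, 5.91% and 5.68%, lie below the control shares of 6.08%, and in the knockdown libraries the distal bar is the lower of each pair.

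The same order was seen when merged regions were counted. Of the 1704 distal regions, 63.7% were called in knockdown replicate 1 and 49.4% in knockdown replicate 2, against 84.7% and 82.5% in control replicates 1 and 2. Of the other autosomal regions, 65.2% and 52.8% were called in knockdown replicates 1 and 2, against 84.1% and 82.1% in control replicates 1 and 2. Distal minus other was therefore -1.49 and -3.41 percentage points in the knockdown libraries and 0.561 and 0.418 points in the control libraries. The means were -2.45 ± 1.36 points in knockdown and 0.489 ± 0.101 points in control libraries (SD, n = 2 each), which differ by -2.94 points (two-sided exact permutation p = 0.333). These shares were not matched on peak strength, which exists only for regions that both controls called.

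Every distal region fell into 1 of 7 patterns of calls. All 4 lists called 662 regions, or 38.8%, near the background of 40.6% over all autosomal regions. Both controls and knockdown replicate 1 alone called 274 regions (16.1%, against 15.1% of other autosomal regions), and both controls and knockdown replicate 2 alone called 86 (5.05%, against 5.47%). Both controls without any knockdown call accounted for 204 regions (12.0%, against 10.5%). A single control list called 262 regions without a knockdown list (15.4%, against 14.5%) and 135 regions together with at least 1 knockdown list (7.92%, against 7.98%). The remaining 81 regions (4.75%, 3.79 to 5.87%) were called in knockdown lists alone, against a background of 5.59% of autosomal regions. Of these 81, 44 came from knockdown replicate 1 alone, 32 from replicate 2 alone and 5 from both. Those 5 were 0.726% (0.236 to 1.68%) of the 689 distal regions called in both knockdown lists, where the background was 1.02%. The knockdown-only counts were thus no higher at the distal ends than elsewhere.

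Strength and shape of the distal regions were close to those of the rest, and their spacing was not. The median score of distal peaks was 88.4 and 79.6 in knockdown replicates 1 and 2, and 111 and 109.9 in control replicates 1 and 2. Other autosomal peaks had medians of 85.4 and 79.2 in the knockdown lists and 111.6 and 108 in the control lists. Merged distal regions had a median width of 578 bp, against 573 bp for the others, and 0.998% of distal regions were wider than 1 kb, against 1.00%. Density differed more. Distal ends held 17.9 regions per Mb, against 11.5 per Mb in the rest of the autosomes, and the median gap to the next region was 22885 bp against 28970 bp. Around a distal region called in both controls, a median of 10 other such regions lay within 250 kb, against 7 for other regions. Distal ends were denser than the rest of the same chromosome on 14 of 19 chromosomes. At the other chromosome end, the 5 Mb beside the centromere held 10.7 regions per Mb.

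At equal control rank, distal regions lacked a knockdown call more often than other autosomal regions. Rank here is the mean position of a region in the 2 control lists ordered by score, and regions were compared within 20 bins of it. Of the 1226 distal regions called in both controls, 204 had no call in either knockdown list. That is 16.6% (95% Clopper-Pearson interval 14.6 to 18.8%), and the background over all autosomal regions called in both controls was 14.8%. From the other regions of the same rank 174 regions, or 14.2%, were expected, so the difference was 2.44 percentage points. The expected share lies just below the interval, which takes each region as independent, and no test over libraries can be made of a class that needs all 4 lists. Both knockdown libraries lay on the same side of their own expectation. Knockdown replicate 1 called 936 of the 1226 (76.3%), where 78.3% were expected, and replicate 2 called 748 (61.0%), where 65.0% were expected. The differences were -1.99 and -4.0 points. Background shares without a call were 22.3% for replicate 1 and 35.9% for replicate 2. Distal regions also had denser surroundings, so they were matched on density as well. With matching on rank and on the number of neighbours within 250 kb together, the difference in regions without any knockdown call was 2.15 points, and with matching inside the same chromosome it was also 2.15 points. On rank and neighbours, the share called differed by -1.84 points in knockdown replicate 1 and by -3.01 points in replicate 2. Inside the same chromosome these differences were -1.85 and -3.92 points. Leaving out knockdown replicate 1, which loosens the class to absence from replicate 2, gave 4.0 points (39.0% against 35.0% expected). Peaks with a score of at least 100 alone gave 3.69 points (41.9% against 38.2% expected). That minimum kept 37.4% and 27.8% of distal peaks in knockdown replicates 1 and 2, and 58.3% and 55.9% in control replicates 1 and 2. In both settings far more regions lack a call than in the main one, so these points are not larger effects.

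In percentage points, the difference in regions without any knockdown call was largest in the weaker control regions. The share of other regions without a call was also highest there. Regions called in both controls were split into 5 groups of about equal size by control rank, from group 1 (weakest) to group 5 (strongest). In group 1, 108 of 240 distal regions (45.0%, 38.6 to 51.5%) had no knockdown call, against 40.2% of other regions. In group 2 it was 60 of 242 (24.8%, 19.5 to 30.7%), against 20.5%. In group 3 the distal share was 8.98% and the other share 8.67%, and in group 4 they were 5.11% and 3.12%. In group 5, 2 of 264 distal regions (0.758%, 0.0919 to 2.71%) and 0.660% of other regions lacked a knockdown call. In knockdown replicate 2 the distal share called was lower than the other share in all 5 groups, by 2.14 to 7.07 points. Its differences were -3.52 points in group 1 and -3.72 points in group 4, so they did not follow strength. In replicate 1 the distal share called was lower in 4 of the 5, and in group 5, 98.5% of distal and 97.5% of other regions were called. Differences between the groups were not tested.

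**Figure D2:**
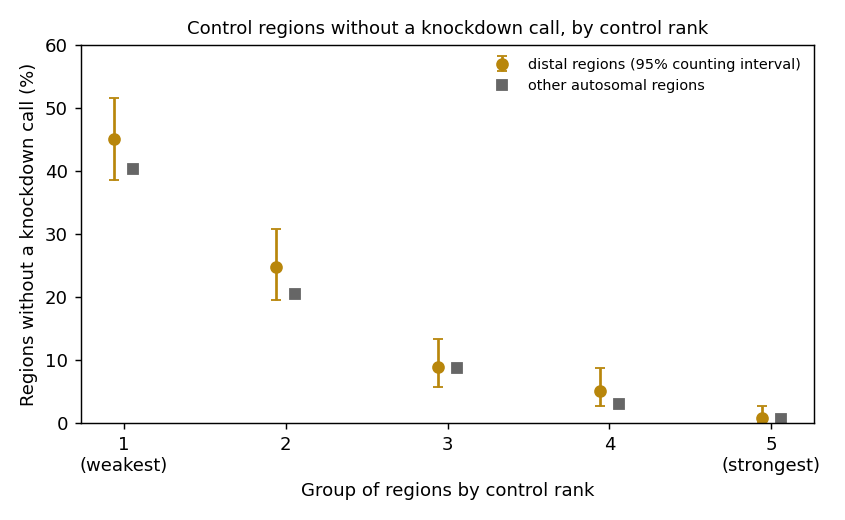
Percentage of regions called in both controls that had no call in either knockdown list, in 5 groups of control rank from the weakest (1) to the strongest (5). Distal regions (circles, 95% Clopper-Pearson intervals) stand at 45.0% in group 1 and 0.758% in group 5, and other autosomal regions (squares) at 40.2% and 0.660%.

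The 5 Mb limit did not mark a step in the data. In 1 Mb steps from the end, the share without a knockdown call was 14.8% in the first, 17.8% in the second, 15.8% in the third, 14.7% in the fourth and 20.3% in the last. All 5 lay above the share expected from control rank, by 0.189 to 5.92 points. Farther in, 12 of the next 15 steps of 1 Mb lay above it as well, and the range over these 15 was -2.27 to 7.97 points. Just inside the limit, over 500 kb, 16 of 90 regions called in both controls (17.8%) had no knockdown call. Just outside it, over 500 kb, 18 of 99 (18.2%) had none. With regions over 20 Mb from the end as the reference at equal rank, the difference was 2.74 points in the distal 5 Mb and 1.86 points from 5 to 20 Mb. For knockdown replicate 1 the share called differed by -2.28 points in the distal 5 Mb and by -1.85 points from 5 to 20 Mb, and for replicate 2 by -4.57 and -3.64 points. Set against the regions from 5 to 20 Mb alone, the distal regions differed by 0.859 points in the share without any knockdown call. The lower knockdown call rate was therefore not particular to the last 5 Mb. Median local density was 10 neighbours in the distal 5 Mb, 9 from 5 to 20 Mb and 7 beyond 20 Mb.

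**Figure D3:**
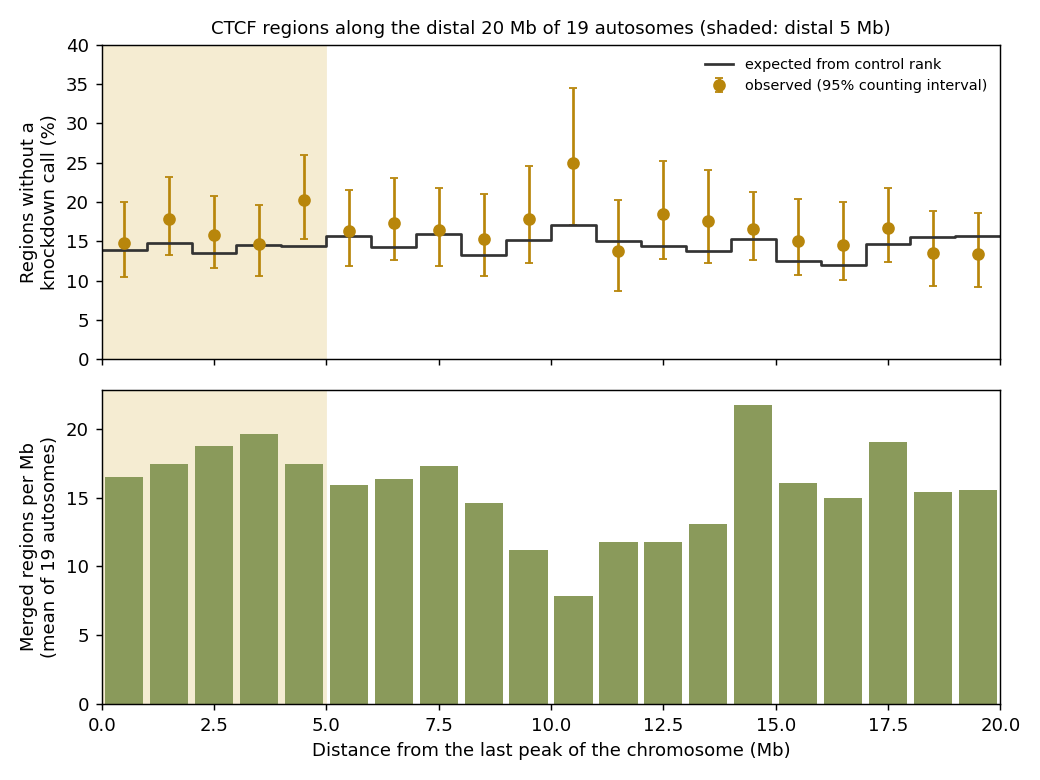
Upper panel, percentage of regions called in both controls that had no knockdown call, in 1 Mb steps from the last peak of the chromosome, with 95% Clopper-Pearson intervals; the line is the share expected from other autosomal regions of the same control rank. Lower panel, merged regions per Mb as a mean over 19 autosomes, highest at 21.7 in the step from 14 to 15 Mb. The first 5 steps (shaded) and 12 of the next 15 lie above the line.

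Regions within 5 Mb of the first peak of a chromosome, beside the centromere, stood on the other side of their expectation. Of 689 centromeric regions called in both controls, 86 (12.5%, 10.1 to 15.2%) had no knockdown call, where 14.9% were expected, a difference of -2.43 points. The share called in knockdown replicate 1 differed from the expected one by 2.64 points there, and in replicate 2 by -0.0123 points. Thus only replicate 1 called more centromeric regions than expected, while both replicates called fewer distal ones. The difference between the 2 kinds of ends was not tested.

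Chromosomes differed widely in how many distal regions they had. Counts ran from 8 on chromosome 17 to 191 on chromosome 15, with a median of 96, and the 3 fullest ends held 28.5% of all members. Chromosome 15 was also the most end-loaded. Its distal 5 Mb took 16.2% and 15.5% of its peaks in knockdown replicates 1 and 2, and 15.97% in each control list. On chromosome 17 only 1 and 4 peaks were distal in knockdown replicates 1 and 2, against 4 and 7 in control replicates 1 and 2.

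Of the 19 chromosomes, 11 had more distal regions without a knockdown call than expected from control rank, and 8 had fewer. Among the 17 with at least 20 distal regions called in both controls, 10 lay above the expected share, 58.8%, where 48.0% of all such 5 Mb windows on the autosomes did. The highest ratio was on chromosome 3, where 8 of 20 regions had no knockdown call (19.1 to 63.9%) and 3.64 were expected (18.2%). Chromosome 1 followed with 17 of 69 (15.1 to 36.5%) against 10.6 expected (15.4%). The lowest ratio was on chromosome 6, with 4 of 60 (1.85 to 16.2%) against 10.2 expected (17.0%). Next was chromosome 14, with 3 of 46 (1.37 to 17.9%) against 4.46 expected (9.71%). They are the extremes among these 17. The expected share lay inside the interval on chromosomes 1 and 14 and outside it on chromosomes 3 and 6. In numbers of regions chromosome 11 stood out most, with 28 of 122 (23.0%, 15.8 to 31.4%) against 18.04 expected. It was singled out after its values were seen. The rest of chromosome 11 was also above its expectation, at 16.7% against 14.5%. On chromosome 3 the rest stood below it, at 12.3% against 14.6%.

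Peak shares by chromosome gave a similar split. In the 17 windows counted above, both knockdown shares were below both control shares in 7 distal windows (41.2%), and 23.2% of all 371 windows had this order. The reverse order held in 2 (11.8%), and 21.0% of all windows had it. On chromosome 11, distal peaks made up 6.69% and 5.76% of the chromosome's peaks in knockdown replicates 1 and 2, against 7.72% and 7.34% in control replicates 1 and 2. Both knockdown values were lower there. On chromosome 19 the shares were 7.28% and 7.41% in knockdown and 8.62% and 8.38% in control libraries. Chromosome 14 had the opposite order, with 7.32% and 8.21% in knockdown and 5.77% and 6.08% in control libraries. On chromosome 6 the shares were 5.80% and 5.64% in knockdown and 5.24% and 5.32% in control libraries. The order of knockdown and control shares thus differed between distal ends, and this spread was not tested.

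**Figure D4:**
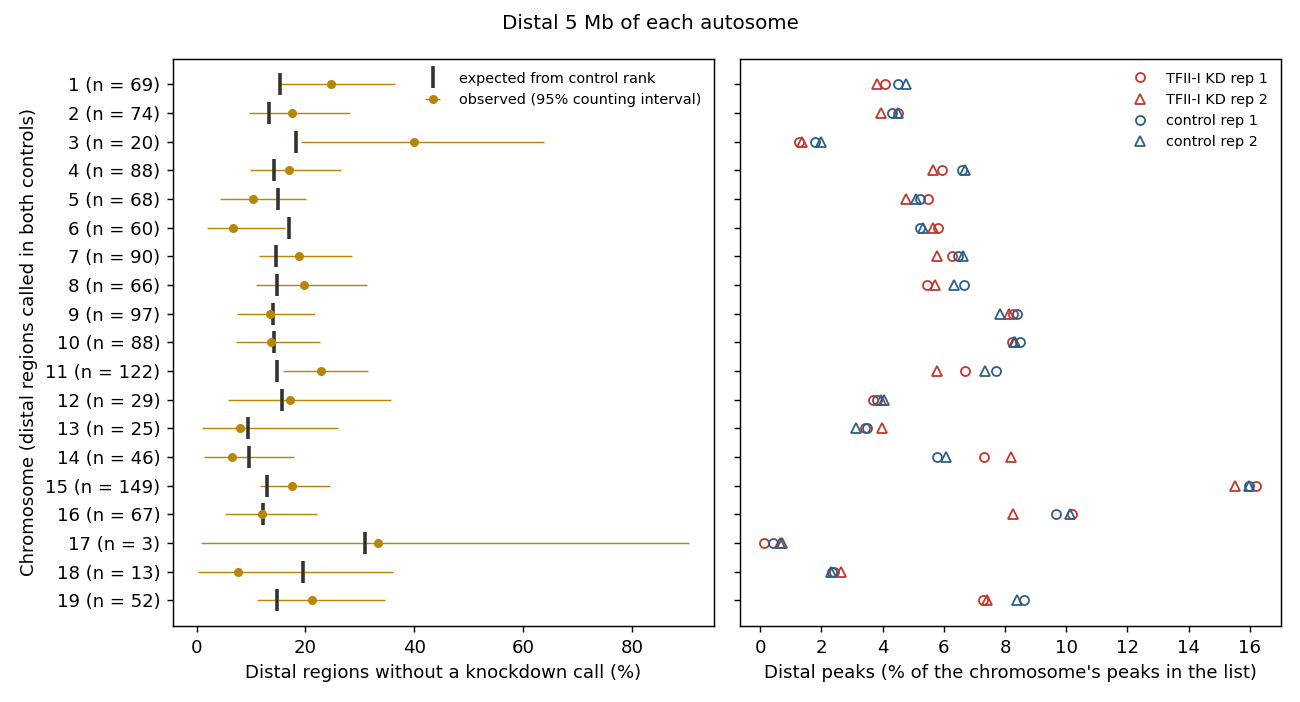
Distal 5 Mb of each autosome. Left, percentage of distal regions called in both controls without a knockdown call (circles, 95% Clopper-Pearson intervals) and the share expected from control rank (bars); n is the number of such regions. Right, distal peaks as a percentage of the chromosome's peaks in each of the 4 lists. Chromosomes 1, 3 and 11 lie farthest above the expected share among those with at least 20 regions, and both knockdown shares exceed both control shares on chromosomes 6, 14 and 18.

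The mean rank of the distal regions that all 4 lists called hardly changed. Regions that lack a call in either knockdown list are not in this set. Within each library these 662 regions were given a rank by score among the 11448 autosomal regions called in all 4, on a scale where 100 is the strongest. Their mean rank was 52.2 and 50.3 points in knockdown replicates 1 and 2, against 51.8 and 52.7 points in control replicates 1 and 2. The values of the groups overlapped, with knockdown replicate 1 between the controls and replicate 2 below both, and they no longer overlapped without control replicate 1 or without either knockdown library. The means were 51.2 ± 1.37 points in knockdown and 52.3 ± 0.658 points in control libraries (SD, n = 2 each), and the difference of -1.02 points was smaller than the knockdown spread (two-sided exact permutation p = 0.667). At equal control rank it was -0.00911 ± 0.729 points (SE over regions), with 0.920 points in replicate 1 and -0.938 in replicate 2. The SE takes each region as independent and leaves out the spread between libraries. Under a score minimum of 100 the unmatched difference turned to 0.817 points. Single chromosomes differed more than the mean over all of them. Among ends with at least 20 such regions, the unmatched difference ran from -9.01 points on chromosome 2 (38 regions) to 4.38 points on chromosome 19 (29 regions). This spread was not tested.

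The distal regions of highest mean rank were taken from those called in every library, and 2 of the first 3 lay close to an end. The first was on chromosome 2 from 181651894 to 181653191, 48.4 kb from the last peak. Its scores were 1344 and 928 in knockdown replicates 1 and 2, against 1035 and 948 in control replicates 1 and 2. Scores are not comparable in size between lists and stand side by side only as a description. The second was its neighbour from 181664691 to 181666437, with scores of 965 and 362 in the knockdown lists and 791 and 607 in the control lists. Both are wider than 1 kb, at 1298 and 1747 bp, and no filter for repeat-like sequence was applied. The third was a region of ordinary width on chromosome 15 from 99246829 to 99247400, 572 bp wide and 4237 kb from the end, with knockdown scores of 342 and 451 and control scores of 581 and 679. Its rank was 140 and 39 in the knockdown lists and 121 and 47 in the control lists. In the GRCm38 gene order, Myt1, Pcmtd2 and Polr3k are the last named protein-coding genes of chromosome 2, without an assignment of these regions to them.

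The 8 distal regions with the highest control ranks among those without a knockdown call lay on 6 chromosomes. The first was on chromosome 15 from 101157572 to 101158032, with scores of 191 and 228 in control replicates 1 and 2. Its nearest peaks in knockdown replicates 1 and 2 were 10948 and 10917 bp away. A second such region of chromosome 15, 102171980 to 102172504, had control scores of 163 and 159.97. It belonged to a run of 3 consecutive control regions without a knockdown call, spread over 15.4 kb from 102166241 to 102181602. Chromosome 2 held the region from 180081853 to 180082276, whose control scores were 165 and 195, with a peak of knockdown replicate 1 at 3125 bp. Chromosome 11 held the regions from 117174182 to 117174736, with control scores of 135 and 213, and from 119406996 to 119407629, with 116 and 191. In both the score of control replicate 2 was the higher. The others were on chromosome 10 from 126601901 to 126602373 (139 and 160.2), chromosome 4 from 154694550 to 154695187 (139 and 159.7) and chromosome 8 from 126870984 to 126871525 (166 and 118). All 8 had other regions within 100 kb, from 3 on chromosome 11 (the region starting at 119406996) to 11 on chromosome 10. Within 100 kb of them were 64 other regions, of which 47 had a knockdown call, 27 were called in all 4 lists and 8 were control regions without a knockdown call. Of all distal regions, 38.8% were called in all 4 lists. Regions called in both controls without a knockdown call made up 12.0%, and those of a single control list without one 15.4%. All the rest had a knockdown call. No difference from these shares is read from the counts.

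Regions without a knockdown call followed one another about as often as they followed regions with a call. After such a distal region, the next region called in both controls also had none in 35 of 203 cases (17.2%). After a distal region with a knockdown call, the next had none in 166 of 1004 cases (16.5%). For other autosomal regions these shares were 16.1% and 14.4%. The distal ends held 6 runs of 3 in all, and none was longer. No count of runs outside the distal ends is given, so no trait of the ends is read from them. The runs lay on chromosomes 3, 4, 11 and 15, with 1 each, and on chromosome 8, with 2. The run on chromosome 3 spanned 634 kb from 154559595 to 155194092, and the others spanned 15.4 to 151 kb.

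The 4 leading distal regions called in both knockdown lists and in neither control list lay on chromosomes 6 and 14. Among ends with at least 20 distal regions called in both controls, these had the lowest ratios of missing calls to expectation. Chromosome 6 had the region from 144958815 to 144959533, with scores of 62.65 and 83.35 in knockdown replicates 1 and 2, and that from 146493156 to 146493447, with 70.2 and 61.0. Chromosome 14 had those from 121617729 to 121618336 (73.0 and 50.6) and from 123454718 to 123455235 (52.8 and 52.7). All these scores are in the lower part of their lists, whose distal medians were 88.4 and 79.6, apart from the 83.35 in replicate 2. The nearest peak of each control list lay between 1515 and 114182 bp away. With 5 such distal regions in all, no more is read from their position.

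The last listed region of a chromosome was called in all 4 lists on 10 of 18 autosomes (55.6%), chromosome 18 being left out of naming, against 38.8% of distal regions and 40.6% of autosomal regions. Knockdown replicates 1 and 2 had a peak in 14 (77.8%) and 11 (61.1%) of them, against 63.7% and 49.4% of all distal regions. Control replicates 1 and 2 had a peak in 15 each (83.3%), against 84.7% and 82.5%. With only 18 regions the counting error of these shares is wide, and no difference from the other shares is read from them. The strongest was on chromosome 19 from 61340975 to 61342077, with scores of 279 and 169 in the knockdown lists and 385 and 286 in the control lists. On chromosome 3 the last region, from 159387296 to 159388020, scored 172 and 159 in the knockdown lists and 269 and 294 in the control lists. The lists as a whole had lower scores in knockdown too, so no change at these 2 regions is read from that. On chromosome 16 the last region scored 50.1 and 63.4 in the knockdown lists and 143 and 147 in the control lists, from 98262852 to 98263369. On chromosome 17 the knockdown scores were 110.5 and 83.2 and the control scores 89.5 and 105.5. On chromosomes 1, 4, 13 and 15 a single list set the end, with a score of 67.4, 51.8, 55.3 and 55.1. On chromosome 4 that list was knockdown replicate 1, on chromosome 1 control replicate 1, and on chromosomes 13 and 15 control replicate 2.

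**Figure D5:**
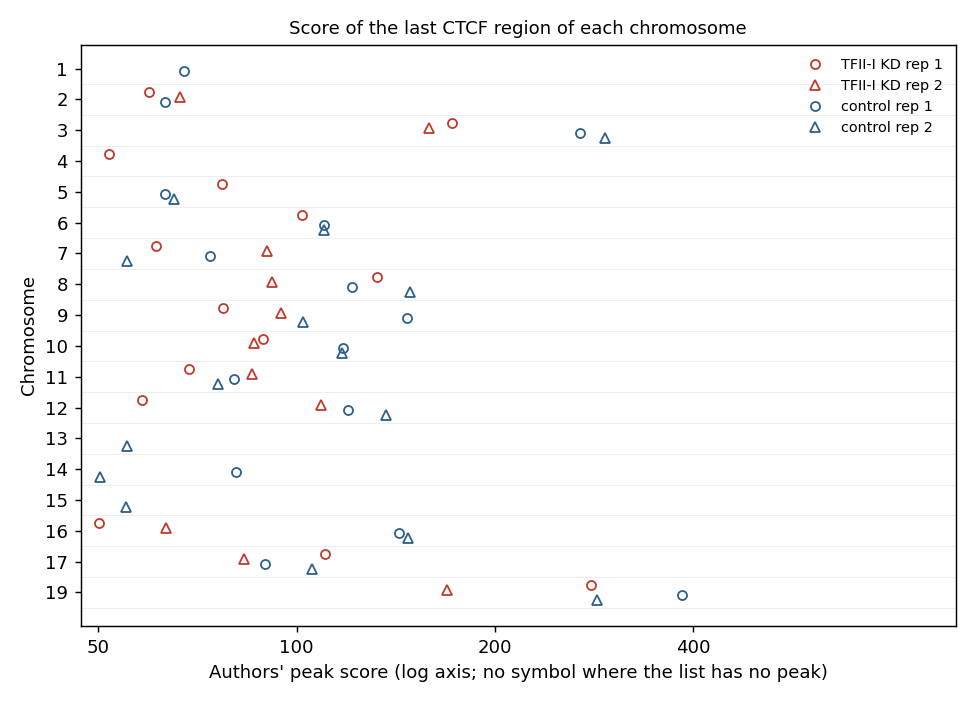
Authors' score (log axis) of the last CTCF region of 18 autosomes in each of the 4 lists; a list without a peak there has no symbol. The 10 regions called in all lists have 4 symbols, and on chromosomes 1, 4, 13 and 15 there is 1. Scores are not comparable in size between lists.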

How the data were processed

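CTCF ChIP-seq peak lists of 2 TFII-I knockdown and 2 control libraries of WEHI-231 were used. BWA, HOMER and the build mm9 are listed in the submitters' processing notes, and the deposited peak names carry the word MACS. For versions, parameters and any input library, nothing is given in the sources used here. The authors deposited 1 list per library with a score per peak, which was used to rank and filter within that list. Scores of different lists are set side by side only as a description, since they are not on a common scale. Sequencing depth is unknown. The members and comparisons were chosen with earlier results of these data known.

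Peaks were merged with 1 bp overlap, and a region took the highest score per library. Expected shares are means over other autosomal regions in 20 bins of control rank. Tests were two-sided exact permutation tests of 2 libraries against 2, and shares have 95% Clopper-Pearson intervals. Named are the last region of each chromosome, the 8 control regions without a knockdown call and 4 knockdown regions without a control call of highest rank, the 3 highest in all lists, and 2 chromosomes each with the highest and lowest ratio to expectation among those with at least 20 regions. Chromosome 18 was left out of naming. Alternatives were window, score, list length, width, merging, matching and leaving out libraries. Python 3.11.15, numpy 2.4.6, pandas 2.3.3, scipy 1.17.1 and matplotlib 3.10.9 were used.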

Additional observations from a re-analysis of the deposited data

How the results depend on the processing

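The distal share of peaks, the distal regions called, the share without any knockdown call and the knockdown call share at equal control rank kept the sign of their mean difference under every setting tried. The order of single libraries was not kept with scores of at least 100. Distal shares were then 6.24% and 5.60% in knockdown replicates 1 and 2, against 6.18% and 6.13% in control replicates 1 and 2. Distal minus other regions called was 1.23 and -2.09 points in the knockdown libraries, against 1.36 and 0.582 points in the control libraries. Leaving out each chromosome in turn and the comparison with regions 5 to 20 Mb from the end were chosen after seeing the data. The difference in the share without a knockdown call, 2.44 points, ran from 1.88 (2 Mb window) to 4.0 points (without knockdown replicate 1) under the other settings. It was 0.859 points against regions 5 to 20 Mb from the end, and 1.99 (without chromosome 3) to 3.06 points (without chromosome 6) without 1 chromosome. The knockdown call share at equal rank, -3.00 points as a mean of both replicates, was -0.695 points against regions 5 to 20 Mb from the end. Without 1 library it ran from -4.0 (without knockdown replicate 1) to -1.99 points (without knockdown replicate 2). The difference in distal peak share, -0.284 points, was -0.399 without knockdown replicate 1, -0.169 without knockdown replicate 2, -0.0836 with a 2 Mb window and -0.505 with a 10 Mb window. With scores of at least 100 the difference in distal regions called was -1.41 points, the rank difference of regions in all lists turned to 0.817 points, and the same at equal control rank was 1.42 points. The cause of these shifts was not tested. In a replicate block, the differences were -0.284 points for the peak share and -2.94 points for the regions called (exact sign-flip p = 0.50 for both, the smallest 2 pairs allow). The block gave -1.02 points for the rank difference. With 1 value per library these means equal the main ones by arithmetic, so they are no further check. Within replicate numbers 1 and 2, the peak share differed by -0.169 and -0.398 points. The regions called differed by -2.05 and -3.83 points, and the mean rank by 0.417 and -2.46 points. The call share, matched anew within each replicate number, gave -2.93 points. The share without any knockdown call needs all 4 lists, so it has no value within a pair. The rank difference was -1.57 without control replicate 1, -0.639 without control replicate 2, -1.63 without knockdown replicate 1 and -1.02 without knockdown replicate 2, and it was -0.0475 with a 2 Mb window, -1.57 with a 10 Mb window and -0.607 at equal list length. Replicates with the same number deviated together with a correlation of 0.0120 over 11448 regions, so the numbers were not taken to pair the libraries. Without depth, a missing call cannot be told apart from a weaker library.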
